A study of Mus musculus with 16 samples.

Results

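The genes described here are 9 that encode proteins of the central myelin sheath or of the oligodendrocytes that make it: Mbp, Mog, Mag, Mobp, Cnp, Cldn11, Mal, Opalin and Ermn. They were taken by matching the Ensembl identifier of each row of the count table to these symbols, which found 9 of 9 among the 21804 genes in the table. RNA was sequenced from 2 brain regions, cortex and thalamus, of C57BL/6 mice aged 4 months, with 4 animals of each genotype and both regions from each animal, giving 16 libraries in 4 groups of 4. All animals carried the Pdgfb retention allele (ret), which lacks the retention motif that keeps secreted platelet-derived growth factor B close to the vessel wall. The ret/wt controls carried it on one chromosome beside the wild-type allele, and the ret/ret animals carried it on both. The allele is germline, so it is not restricted to one cell type. Thalamic pieces of ret/ret animals were calcifications, found by their own fluorescence and cut out under a stereomicroscope, whereas the thalamus of ret/wt animals was sampled in the matching region. Genotype and the choice of tissue piece therefore cannot be told apart in the thalamus. The cortex was taken in both genotypes as a region not prone to calcify.

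Oligodendrocytes wrap axons in myelin, a compacted stack of their own membrane that speeds conduction. The sheath is built from a few very abundant structural proteins, from adhesion proteins that face the axon or the outside, and from a lipid-rich membrane. The cells arise from precursors that divide in the adult brain, and the transcription factors Sox10 and Myrf drive the myelin genes as they mature. In bulk tissue, fewer oligodendrocytes and less of their RNA in each cell cannot be told apart, so every value below is a level per library and not per cell.

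The stretches just before the start are shown for 4 of the members that carry letters that Sox10 or Myrf are known to recognise. The table of RefSeq promoters (GRCm38.p6) held 8 of the 9 members, and 250 bases before the start were searched on both strands for ACAAAG and ACAATG (Sox) and for CTGGCAC and CTGGTAC (Myrf). The lines below leave out bases that the gene annotation already counts as transcribed. Capitals mark the matches, read as CTTTGT or GTACCAG where the match lies on the other strand. The Mobp stretch is at chr9:120149492-120149706 on the plus strand, Mag at chr7:30914874-30915113 on the minus strand, Cnp at chr11:100574689-100574903 on the plus strand and Mog at chr17:37023399-37023648 on the minus strand, and each is written from 5′ to 3′ in the direction of its gene.
Mobp: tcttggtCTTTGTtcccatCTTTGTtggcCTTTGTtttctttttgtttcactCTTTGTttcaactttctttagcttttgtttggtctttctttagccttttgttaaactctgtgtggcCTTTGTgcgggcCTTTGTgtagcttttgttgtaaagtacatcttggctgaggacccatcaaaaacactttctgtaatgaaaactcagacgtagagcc
Mag: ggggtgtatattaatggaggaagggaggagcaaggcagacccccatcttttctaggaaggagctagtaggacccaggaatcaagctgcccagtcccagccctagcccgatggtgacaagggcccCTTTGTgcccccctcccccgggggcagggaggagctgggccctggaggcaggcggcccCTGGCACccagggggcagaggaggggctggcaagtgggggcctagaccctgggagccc
Cnp: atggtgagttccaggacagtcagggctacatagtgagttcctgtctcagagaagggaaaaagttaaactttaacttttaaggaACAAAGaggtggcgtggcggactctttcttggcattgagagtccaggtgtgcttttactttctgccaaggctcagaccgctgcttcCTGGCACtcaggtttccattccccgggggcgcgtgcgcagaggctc
Mog: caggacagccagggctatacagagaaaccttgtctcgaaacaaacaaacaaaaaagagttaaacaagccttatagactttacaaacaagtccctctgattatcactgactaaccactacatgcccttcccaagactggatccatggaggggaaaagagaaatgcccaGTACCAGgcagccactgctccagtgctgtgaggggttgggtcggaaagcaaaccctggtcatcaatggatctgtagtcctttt

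ACAAAG stood in 4 of the 8 member promoters (Cnp, Mag, Mobp and Opalin) and in 16.5% of 27025 promoters, counting 1 per gene. ACAATG stood in 1 of 8 (Ermn), against 11% of all, and either Sox spelling in 5 of 8, against 25.5%. One of the Myrf spellings stood in 3 of 8 (CTGGCAC in Cnp and Mag, CTGGTAC in Mog), against 5.86% of all promoters. Cldn11 and Mal held none of the Sox or Myrf spellings. The Mobp stretch held 6 copies of ACAAAG, all on the other strand and between 243 and 115 bases before the start, and 1 of the 27025 promoters held that many. In Mag the Myrf letters lay 68 to 62 bases before the start and the Sox letters 126 to 121, and in Cnp they lay at 81 to 75 and 167 to 162. All these positions count from the RefSeq start. The lines printed above stop 35 bases before it for Mobp and Cnp and 10 bases before it for Mag. The proneural E-box CAGCTG and TATAAA stood in 0 of 8 member promoters and in 12.8% and 13% of all. These are matches of letters in a window, and no binding was measured in these samples.

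The libraries held 13415391 to 29135064 counts, so that 3 counts, the limit that a count of 0 allows, correspond to 0.103 to 0.224 CPM, the usual scaling of counts to a common library total. Levels are given as CPM adjusted with TMM factors over the 16 libraries. Every member stood far above that limit in every library, the fewest counts being 88 for Opalin in one cortex library. Some libraries stood apart in ways the labels do not give. The choroid plexus markers (Ttr, Kl, Folr1, Aqp1, Clic6 and Kcnj13) summed to 1134 CPM in ret/wt cortex replicate 4, against 17.3 to 68.3 CPM in the other ret/wt cortex libraries. The cerebellar markers were Cbln1, Cbln3, Gabra6, Pcp2, Fat2 and Zic1. They summed to 1038 CPM in ret/wt cortex replicate 3 and 2786 CPM in ret/ret cortex replicate 2. The thalamic neuron markers were Tcf7l2, Prkcd, Rora, Lef1, Slc17a6 and Shox2. In the thalamus of the same 2 animals they summed to 2566 and 2728 CPM, against 316 to 906 CPM in the other thalamus libraries. These 2 animals were also the only ones with reads of the Y-linked gene Ddx3y (55.2 to 68.7 CPM, against at most 0.219 CPM in the other libraries). Mitochondrial genes took 3.22% to 8.80% of counts in ret/wt libraries. In ret/ret animals they took 4.29% to 7.04% of the cortex counts and 5.87% to 12.1% of the thalamus counts. The part of these differences in the results below was not tested, and values fitted without those libraries are given beside the results.

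All 9 members were measured at higher levels in thalamus than in cortex, in both genotypes and in each of the 8 animals, whose 72 differences within the animal ranged from 0.67 to 3.33 on the log2 CPM scale. In ret/wt animals 9 of 9 passed the test as higher, where 5.44% of the 14442 genes tested did, 7.12% passed as lower and 12.6% in either direction. In ret/ret animals 8 of 9 passed as higher, where 4.10% of 14715 genes did, 5.40% passed as lower and 9.50% in either direction. The lowest thalamus library lay above the highest cortex library for all 9 members in both genotypes, which held for 9.24% and 8.26% of all genes as higher, and in either direction for 20.0% and 17.5%. The median log2 fold change of the members was 1.68 in ret/wt and 1.56 in ret/ret, beside 0.03 and -0.02 over all genes tested. Of all calls 43.3% were higher in ret/wt and 43.1% in ret/ret. Scaling by library size alone made that share 53.7% in ret/wt, and upper-quartile factors made it 53.0% and 55.3%, with the median of all genes at 0.13, 0.13 and 0.10. In ret/wt animals the 9 genes together took 0.128% to 0.288% of the cortex counts and 0.706% to 1.03% of the thalamus counts. The ret/ret shares were 0.181% to 0.339% and 0.758% to 1.31%. The test was the quasi-likelihood test of edgeR, adjusted over all genes by the Benjamini-Hochberg method and called at an adjusted p under 0.05. Each fit held only the 8 libraries of its comparison and did not pair the 2 regions of an animal. With the animal as a block every member passed in both genotypes. The edgeR adjusted p was then 0.0056 to 0.0247 in ret/wt and 0.0106 to 0.0285 in ret/ret.

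**Figure D1:**
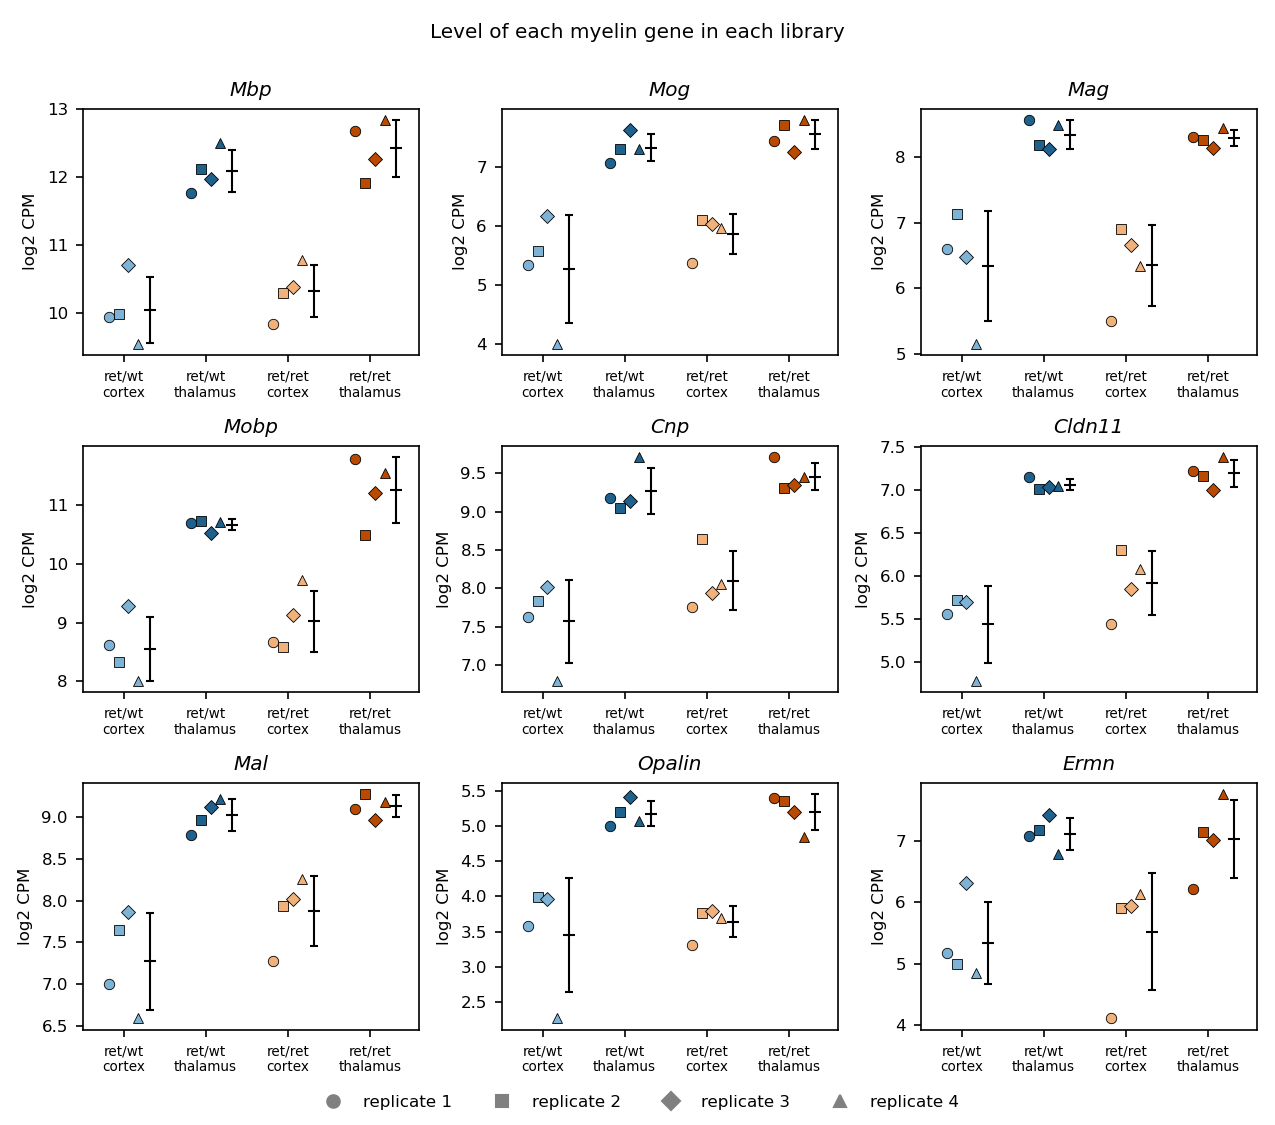
Level of each of the 9 myelin genes (log2 CPM, vertical axis, scale differing between panels) in each of the 16 libraries, by group, with the symbol shape giving the replicate number and the bars the mean and SD of 4 libraries. In every panel the thalamus libraries of a genotype lie above its cortex libraries, and ret/wt cortex replicate 4 is the lowest of its group.

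Mbp (ENSMUSG00000041607), myelin basic protein, binds the inner faces of the membrane together so that the sheath compacts. Its level was 982, 1009, 1678 and 746 CPM in ret/wt cortex and 3483, 4443, 4018 and 5832 CPM in ret/wt thalamus, replicates 1 to 4 in turn. The ret/ret animals had 916, 1257, 1333 and 1758 CPM in cortex and 6536, 3853, 4929 and 7369 CPM in thalamus. Thalamus was higher by 2.03 ± 0.29 (log2 fold change ± SE, edgeR adjusted p = 0.00165) in ret/wt and by 2.11 ± 0.28 (adjusted p = 0.00406) in ret/ret, about 4.07-fold and 4.32-fold. No thalamus library was as low as any cortex library.

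Mobp (ENSMUSG00000032517, chr9:120149707-120181484, plus strand, GRCm38), myelin-associated oligodendrocyte basic protein, is a second basic protein of compact myelin, found next to Mbp. It was measured at 393, 321, 621 and 257 CPM in ret/wt cortex and at 1656, 1683, 1474 and 1660 CPM in ret/wt thalamus. The ret/ret values were 406, 383, 558 and 840 CPM in cortex and 3485, 1438, 2352 and 2982 CPM in thalamus. The ret/wt thalamus libraries lay close together (SD 96.8 CPM, n = 4), and the ret/ret thalamus libraries were spread widely (SD 882 CPM, n = 4), with 3 of them above and 1 below all 4 ret/wt thalamus libraries. The fitted log2 fold change of thalamus against cortex was 2.04 ± 0.27 in ret/wt (edgeR adjusted p = 0.00121) and 2.23 ± 0.34 in ret/ret (adjusted p = 0.0062), the highest of the 9 members in each genotype. Exons of Mobp share bases with Gm38642 on the same strand, a gene not analysed here.

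Mag, Mog and Opalin are membrane proteins of the sheath or the cell surface. Mag (ENSMUSG00000036634, chr7:30899176-30914873, minus strand) sits in the layer facing the axon and holds it to the sheath. It was measured at 96.6, 140, 88.5 and 35.6 CPM in ret/wt cortex, where replicate 4 was far below the others, and at 378, 290, 277 and 358 CPM in ret/wt thalamus. In ret/ret animals it stood at 45.2, 119, 101 and 80.9 CPM in cortex and at 315, 306, 280 and 345 CPM in thalamus, so the cortex libraries differed among themselves by up to 2.64 times and the thalamus libraries by 1.23 times. The regional log2 fold change of Mag was 1.87 ± 0.35 in ret/wt (edgeR adjusted p = 0.00682) and 1.85 ± 0.27 in ret/ret (adjusted p = 0.00534).

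Mog (ENSMUSG00000076439, chr17:37010743-37023398, minus strand) lies on the outermost layer of the sheath and is a known target of autoimmunity. Its level was 40.2, 47.4, 71.4 and 15.9 CPM in ret/wt cortex and 134, 158, 196 and 158 CPM in ret/wt thalamus, and 41.2, 68.6, 65.4 and 62.1 CPM in ret/ret cortex and 173, 208, 152 and 222 CPM in ret/ret thalamus. The log2 fold change of thalamus against cortex was 1.90 ± 0.38 (edgeR adjusted p = 0.0085) and 1.67 ± 0.20 (adjusted p = 0.00324). Opalin (ENSMUSG00000050121, chr19:41061710-41077113, minus strand), a glycoprotein of central oligodendrocytes, was the least abundant member, at 4.78 to 15.9 CPM in ret/wt cortex, 32.0 to 42.3 CPM in ret/wt thalamus, 9.88 to 13.8 CPM in ret/ret cortex and 28.6 to 42.0 CPM in ret/ret thalamus. Its log2 fold change was 1.60 ± 0.34 in ret/wt (edgeR adjusted p = 0.0116) and 1.56 ± 0.19 in ret/ret (adjusted p = 0.00323).

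Cldn11 (ENSMUSG00000037625, chr3:31149920-31164324, plus strand) forms the tight junctions that seal the layers of central myelin. Mal (ENSMUSG00000027375, chr2:127633226-127656695, minus strand) is a small protein of lipid-rich membrane in the sheath. Cnp (ENSMUSG00000006782, chr11:100574904-100591729, plus strand) is an enzyme of the uncompacted channels of the sheath. Cldn11 stood at 46.9, 52.8, 51.9 and 27.4 CPM in ret/wt cortex and at 142, 128, 131 and 132 CPM in ret/wt thalamus, the narrowest group of any member (coefficient of variation 4.42%). It stood in ret/ret at 43.3, 78.6, 57.6 and 67.9 CPM in cortex and at 149, 143, 128 and 167 CPM in thalamus. Mal ranged from 96.6 to 232 CPM in ret/wt cortex, 440 to 595 CPM in ret/wt thalamus, 155 to 306 CPM in ret/ret cortex and 498 to 617 CPM in ret/ret thalamus. Cnp ranged over the same groups from 110 to 259, 528 to 840, 217 to 400 and 635 to 837 CPM. These 3 genes had the lowest fitted regional differences in ret/ret animals, all past the test: 1.25 ± 0.20 for Cldn11 (edgeR adjusted p = 0.00665), 1.22 ± 0.21 for Mal (adjusted p = 0.00929) and 1.33 ± 0.22 for Cnp (adjusted p = 0.00721). In ret/wt animals they were 1.59 ± 0.22, 1.68 ± 0.28 and 1.68 ± 0.28 (edgeR adjusted p = 0.00153, 0.0036 and 0.0039). Exons of Cnp overlap those of Dnajc7 on the opposite strand (122 to 262 CPM), and whether the counting used strand is not given in the sources used here.

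Ermn (ENSMUSG00000026830, chr2:58045113-58052864, minus strand), ermin, links the actin skeleton to the membrane in late oligodendrocyte processes. It was measured at 35.9, 31.9, 79.6 and 28.9 CPM in ret/wt cortex and at 134, 144, 170 and 110 CPM in ret/wt thalamus, and its log2 fold change was 1.67 ± 0.32 (edgeR adjusted p = 0.00784). In ret/ret animals it stood at 17.3, 59.8, 61.5 and 69.9 CPM in cortex and at 74.3, 141, 129 and 216 CPM in thalamus. Replicate 1 was the lowest of both ret/ret groups, so that the groups were close to touching (69.9 and 74.3 CPM) although the animal itself was 4.29-fold higher in thalamus. The fitted difference was 1.43 ± 0.44 and missed the threshold (edgeR adjusted p = 0.0699). With the animal as a block it was 1.51 and passed (edgeR adjusted p = 0.0176), as it did in DESeq2 (1.44, adjusted p = 0.00792).

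**Figure D2:**
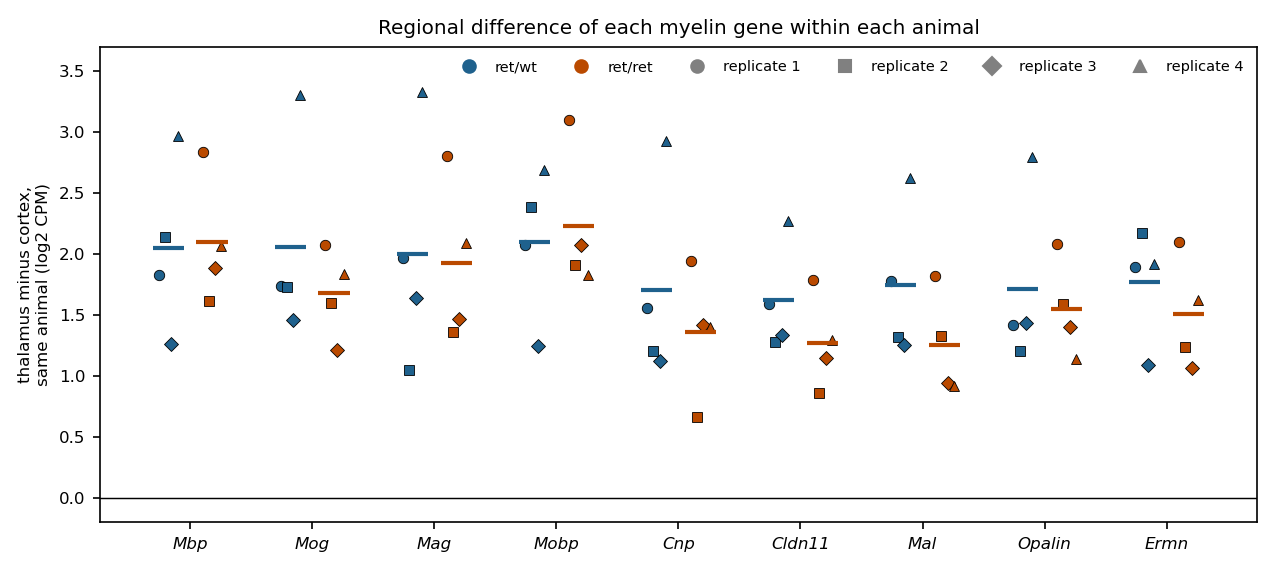
Thalamus minus cortex of the same animal (log2 CPM, vertical axis) for each of the 9 genes, blue for ret/wt and orange for ret/ret, with the symbol shape giving the animal's replicate number and the short bar the mean of 4 animals. All 72 points lie above 0, and ret/wt replicate 4 and ret/ret replicate 1 give the largest difference of their genotype for most genes.

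The size of the regional difference varied between animals. The mean over the 9 genes was 1.76, 1.61, 1.32 and 2.76 on the log2 scale in ret/wt replicates 1 to 4, and 2.28, 1.35, 1.40 and 1.58 in ret/ret replicates 1 to 4. The cortex libraries of the animals with the largest means were the low ones. The cortex of ret/wt replicate 4, which also held the choroid plexus markers, was the lowest of its group for 9 of 9 members, and the cortex of ret/ret replicate 1 for 8 of 9. Without ret/wt cortex replicate 4 the ret/wt differences were 1.34 to 1.88, and 9 of 9 members still passed edgeR's quasi-likelihood test (adjusted p = 0.00154 to 0.0198). Without the 2 animals with Y-linked reads, which were also those with cerebellar markers, 9 of 9 passed in ret/wt (1.66 to 2.38) and 8 of 9 in ret/ret (1.19 to 2.31, Ermn again missing with an adjusted p = 0.0913).

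Markers of the other cell types that the pieces could hold were measured beside the members. The 6 neuronal markers (Snap25, Syt1, Rbfox3, Tubb3, Stmn2 and Eno2) summed to 5652 to 7956 CPM in ret/wt cortex and 3947 to 5914 CPM in ret/wt thalamus, and to 5525 to 8278 CPM and 3039 to 5651 CPM in ret/ret cortex and thalamus. None of them passed as higher in thalamus, and 2 passed as lower in ret/wt and 1 in ret/ret. The 6 astrocyte markers were Aqp4, Gfap, Slc1a2, Slc1a3, Aldh1l1 and Gja1. They summed to 5287 to 6063 CPM and 2138 to 4347 CPM in ret/wt cortex and thalamus, with 1 passing as lower. In ret/ret they summed to 5649 to 7449 CPM and 3128 to 3943 CPM, with 2 passing as lower. None of the astrocyte markers passed as higher. By fitted value 4 of 6 were higher in ret/wt thalamus (median 0.34) and 2 of 6 in ret/ret thalamus (median -0.09). Of the Schwann cell markers, which would mark peripheral myelin, Pmp2 was at 0 to 0.195 CPM in all libraries, Prx was at 0.217 to 1.0 CPM, and Egr2, which active cortical neurons also express, was lower in thalamus. Microglial markers (6 genes) and endothelial markers (5 genes) had 0 calls in either genotype. Thalamic neuron markers passed as higher in thalamus for 5 of 6 genes in ret/wt and 3 of 6 in ret/ret. Their part in the members' difference was not tested. Of the regional labels, cortical projection neuron markers summed to 136 to 507 CPM in cortex and 31.3 to 75.9 CPM in thalamus.

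Levels can be compared between genes only per length. Divided by the longest coding transcript of the annotation, the order of mean CPM per kilobase was the same in all 4 groups: Mbp, Mobp, Cnp, Mal, Mag, Mog, Cldn11, Ermn and Opalin. In ret/wt thalamus the values ran from 926 for Mbp and 493 for Mobp through 267 for Cnp, 188 for Mal, 134 for Mag, 94.7 for Mog, 71.4 for Cldn11 and 38.4 for Ermn to 19.7 CPM per kilobase for Opalin. Mbp and Mobp have transcripts of very different lengths, and with the median transcript length Mobp came before Mbp and Mal before Cnp in all 4 groups, and Mog before Mag in ret/ret cortex. Neighbours in the order can overlap in their spread: in ret/ret cortex Mag (36.6% coefficient of variation, n = 4) and Mog (20.9%) stood at 35.6 and 34.8 CPM per kilobase.

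Between genotypes, no member passed the test in either region. In the thalamus 0 of 9 passed and 0 of 9 had groups that did not overlap, where 0% of 14767 genes passed and 2.72% did not overlap. EdgeR called 0 genes of all, 1 member had an unadjusted p under 0.05, and DESeq2 called 38 genes, none of them a member. Mobp had the largest difference, higher in ret/ret by 0.70 ± 0.26 (95% interval 0.12 to 1.27, unadjusted p = 0.022, edgeR adjusted p = 0.9998), with a mean of 2564 ± 882 CPM against 1618 ± 96.8 CPM (SD, n = 4). The other members lay between -0.03 (Mag, interval -0.41 to 0.35) and 0.38 (Mbp, interval -0.20 to 0.95), and the median of the 9 was 0.17, beside -0.02 over all genes. Without ret/ret thalamus replicate 1 the Mobp difference was 0.50, and without replicate 2 it was 0.90. Without the 2 animals with Y-linked reads it was 0.85 and that of Mbp 0.48. Markers of other cell types moved in the same comparison, 0 of them past the test. The microglial markers were fitted higher in ret/ret thalamus for 6 of 6 genes (median 0.63, 4 without overlap), the endothelial markers for 5 of 5 (median 0.54) and the astrocyte markers for 5 of 6 (median 0.34, 1 without overlap). Cerebellar markers were fitted higher for 3 of 4 (median 1.25) and thalamic neuron markers lower for 5 of 6 (median -0.19). Their part in the members' values was not tested.

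In the cortex 0 of 9 members passed, where 0.0210% of 14288 genes did (3 genes), and 0 of 9 had groups that did not overlap, where 2.44% of genes did. Of the 9, 8 were fitted higher in ret/ret, with a median of 0.46 beside 0.01 over all genes, from 0.08 for Opalin to 0.58 for Mal, and Mag was at -0.04. The largest were Mal (0.58 ± 0.30, 95% interval -0.09 to 1.24), Cnp (0.52 ± 0.28, interval -0.11 to 1.15), Cldn11 (0.49 ± 0.25, interval -0.07 to 1.05) and Mobp (0.48 ± 0.32, interval -0.25 to 1.20), each with an edgeR adjusted p = 0.999. Each interval includes 0 and also more than a 2-fold rise. The 9 values share libraries. Replicate 4 of ret/wt cortex was the lowest of its group for 9 members, and replicate 3 was the highest for 6. Without ret/wt cortex replicate 4 Mal was at 0.39, Mobp at 0.32 and Mbp at 0.13. Mag was then at -0.30 and Opalin changed sign to -0.18. Other libraries mattered too: leaving out 1 library at a time took Mbp as low as 0.084 and Mobp as low as 0.18. Without the 2 animals with Y-linked reads most differences were larger, with Mobp at 0.91, Mal at 0.78, Mog at 0.72, Ermn at 0.63 and Mbp at 0.56, while Cnp was at 0.45, Cldn11 at 0.42, Opalin at 0.19 and Mag at -0.25, and again no member passed. Markers of other cell types moved in the same comparison, 0 of them past the test. Thalamic neuron markers were fitted higher in ret/ret cortex for 5 of 5 genes tested (median 0.85, 2 with an unadjusted p under 0.05), cerebellar markers for 4 of 4 (median 1.43), endothelial markers for 4 of 5 (median 0.67), astrocyte markers for 5 of 6 (median 0.38) and microglial markers for 6 of 6 (median 0.20). Choroid plexus markers were fitted lower for 4 of 4 (median -1.72). Single libraries held most of these counts. The choroid plexus sum was 1134 CPM in ret/wt cortex replicate 4 and 9.64 to 68.3 CPM in the other cortex libraries. The cerebellar sum was 1038 CPM in ret/wt cortex replicate 3, 2786 CPM in ret/ret cortex replicate 2, and 4.56 to 33.3 CPM in the rest. The part of all these markers in the members' values was not tested. The same cortex libraries of ret/wt enter the regional comparison of that genotype, so the values of both are not independent.

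**Figure D3:**
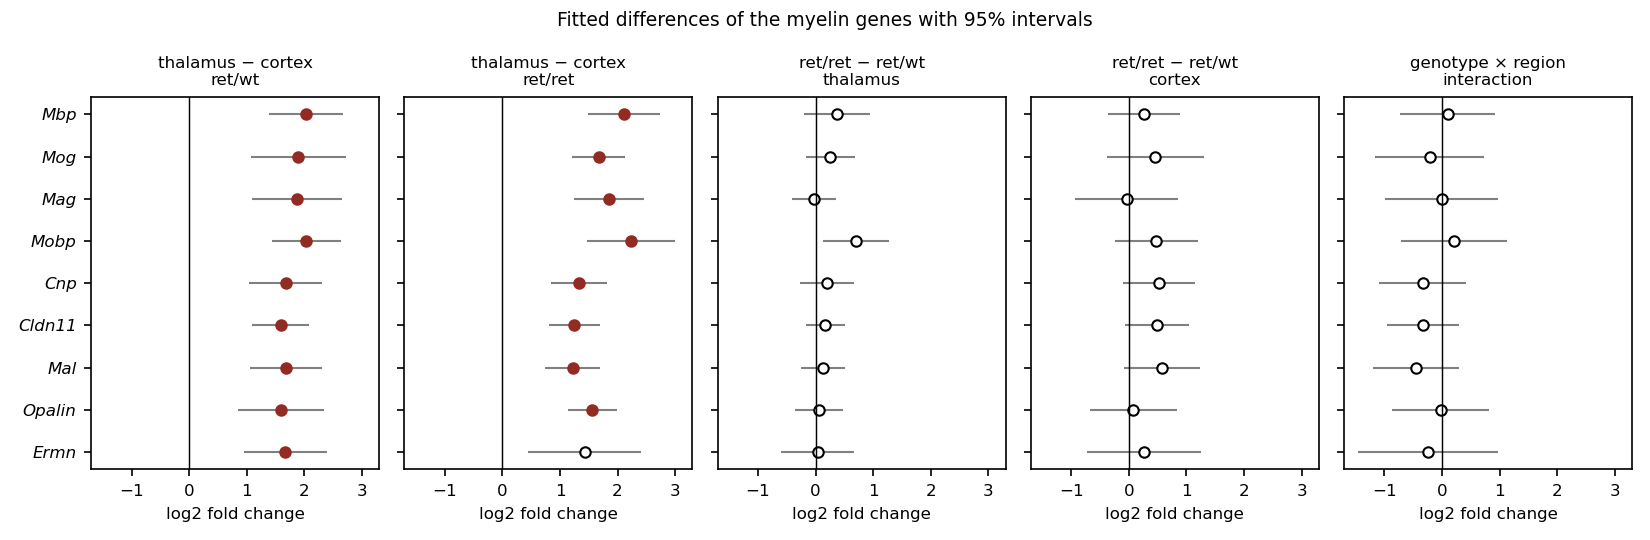
Fitted log2 fold change of each of the 9 genes with its 95% interval in the 5 comparisons, filled where the adjusted p is under 0.05. The regional differences lie between 1.22 and 2.23 in both genotypes, and every interval of the cortex comparison and of the interaction includes 0.

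The comparison of the regional differences between the genotypes (the interaction) gave 0 of 9 members past the test, where 0% of 15286 genes passed, and 0 of 9 without overlap of the animals' differences, where 1.74% of genes had none. The fitted values ran from -0.45 ± 0.35 for Mal (95% interval -1.20 to 0.30) to 0.21 ± 0.44 for Mobp (interval -0.72 to 1.13), with edgeR adjusted p = 1 for each, no member had an unadjusted p under 0.05, and DESeq2 called 4 genes, none a member. Intervals of this width leave room for regional differences that differ between the genotypes by more than 1.5-fold in either direction for 6 of the 9 members. The regional difference of Ermn, which passed in ret/wt and missed in ret/ret, was not shown to differ (-0.24, interval -1.45 to 0.98). The fit behind these values and intervals did not pair the 2 regions of an animal. With the animal as a block the interaction values ran from -0.49 (Mal) to 0.12 (Mobp), and no member passed. Without ret/wt cortex replicate 4 the interaction values ran from -0.26 (Mal) to 0.37 (Mobp), and those of Mog, Mag and Opalin changed sign to 0.07, 0.27 and 0.25. Without the 2 animals with Y-linked reads they ran from -0.66 (Mal) to 0.15 (Mag), with Ermn at -0.49 and Mog at -0.41, and those of Mbp, Mobp and Mag changed sign to -0.08, -0.05 and 0.15.

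The rest of the oligodendrocyte programme was followed through lists of other genes, again thalamus against cortex. Over all genes tested, 5.44% passed as higher and 7.12% as lower in ret/wt, and 4.10% and 5.40% in ret/ret. Of 27 other myelin sheath proteins, 20 passed as higher and 1 as lower in ret/wt thalamus against cortex, and 15 and 1 in ret/ret, with medians of 1.40 and 0.99. Among the largest were Hapln2, which binds hyaluronan at the node of Ranvier (2.50 ± 0.28 and 2.01 ± 0.44), Bcas1, a marker of actively myelinating cells (2.30 ± 0.30 and 1.96 ± 0.39), and the gap junction protein Gjb1 (2.15 ± 0.35 and 2.01 ± 0.28). Without ret/wt cortex replicate 1, or without replicate 2, 13 genes of the list passed in either direction instead of 21. In ret/ret, 9 or 10 passed instead of 16 without thalamus replicate 1, thalamus replicate 4 or cortex replicate 3. By fitted value 3 genes of the list were lower in each genotype. The gene that passed as lower in both was Gpm6b (-0.81 ± 0.22 and -0.92 ± 0.21), a membrane protein that neurons and astrocytes also express.

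Of 9 genes of myelin lipid synthesis, 7 passed as higher in ret/wt and 6 in ret/ret, and none as lower, with medians of 1.28 and 1.12. Fa2h, which hydroxylates the fatty acids of myelin lipids, rose by 1.67 ± 0.26 and 1.67 ± 0.20 (edgeR adjusted p = 0.00247 and 0.00297). Ugt8a, which makes galactosylceramide, rose by 1.50 ± 0.35 and 1.28 ± 0.31. Aspa, which supplies acetate from N-acetylaspartate, rose in ret/wt (1.78 ± 0.42). Without ret/wt cortex replicate 1, 4 of the 9 passed in ret/wt. Of 15 other genes of mature oligodendrocytes 10 passed as higher in each genotype and none as lower, with medians of 1.39 and 1.23. The largest was the protease Klk6 (3.09 ± 0.74 and 3.03 ± 0.71). In each genotype 1 gene was fitted lower, at -0.74 in ret/wt and -0.75 in ret/ret. Without ret/wt cortex replicate 1, 5 of these 15 passed in ret/wt. With the animal as a block Klk6 missed the threshold in ret/ret (3.20, edgeR adjusted p = 0.0515).

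Of the transcription factors 9 were tested, and 1 listed gene was not analysed here. In each genotype 5 of the 9 passed as higher and none as lower, with medians of 1.47 in ret/wt and 1.44 in ret/ret. Sox10 was at 16.9 to 28.4 CPM in ret/wt cortex and 45.5 to 59.4 CPM in ret/wt thalamus, and at 19.0 to 23.4 CPM and 52.9 to 72.0 CPM in ret/ret, a rise of 1.28 ± 0.21 and 1.56 ± 0.16 (edgeR adjusted p = 0.0036 and 0.00179). Myrf was at 25.5 to 37.2 CPM and 94.7 to 121 CPM in ret/wt cortex and thalamus and at 22.0 to 44.9 CPM and 90.8 to 128 CPM in ret/ret, a rise of 1.72 ± 0.18 and 1.57 ± 0.23 (edgeR adjusted p = 0.000376 and 0.00534). Tcf7l2 had the largest difference (5.16 ± 0.34 and 4.34 ± 0.67), and it also marks thalamic neurons and stands in that marker list, so its value does not describe oligodendrocytes alone.

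Of 13 genes of oligodendrocyte precursors and newly formed oligodendrocytes, 2 passed as higher in ret/wt (Lhfpl3 at 1.53 ± 0.30 and Neu4 at 1.12 ± 0.26) and 3 in ret/ret (C1ql1 at 1.98 ± 0.35, Lhfpl3 at 1.37 ± 0.30 and Enpp6 at 1.26 ± 0.30), with none lower and medians of 0.28 and 0.35. With the animal as a block Enpp6 missed the threshold in ret/ret (1.23, edgeR adjusted p = 0.0843). In ret/wt 1 gene passed without cortex replicate 1 or without the animal with Y-linked reads, and 1 gene in ret/ret without cortex replicate 3 or cortex replicate 4. Pdgfra, the receptor that defines precursors, was at 58.9 to 91.5 CPM in ret/wt cortex and 29.8 to 74.6 CPM in ret/wt thalamus, and its difference was -0.24 ± 0.28 in ret/wt and 0.25 ± 0.26 in ret/ret (edgeR adjusted p = 0.632 and 0.576). Gpr17, a receptor of cells that are just beginning to differentiate, was at 31.4 to 58.5 CPM and 41.7 to 63.6 CPM in ret/wt cortex and thalamus, with differences of 0.16 ± 0.24 and -0.03 ± 0.44 (edgeR adjusted p = 0.711 and 0.975). The groups overlapped for both genes.

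Of 10 genes of the axon and the node of Ranvier, 3 passed as higher in ret/wt thalamus and 2 in ret/ret. All were neurofilaments: Nefh (2.44 ± 0.32 and 1.91 ± 0.25), Nefm in ret/wt (1.24 ± 0.28) and Nefl (0.68 ± 0.20 and 0.87 ± 0.23). Nefl missed the threshold under 11 of 17 alternatives in ret/wt and 10 of 17 in ret/ret. In ret/ret 1 gene of the list passed without cortex replicate 1, 2 or 4, or without any one thalamus library, and with the animal as a block. Without the animal with Y-linked reads, 1 passed in each genotype. The medians of the list were 0.15 and 0.10. Between genotypes and in the interaction, 0 genes of any of these lists passed edgeR's quasi-likelihood test. In the thalamus comparison 2 listed genes had an unadjusted p under 0.05. They were Sept4 (-0.60 ± 0.22), 1 of 27 sheath proteins, and Itpr2 (0.80 ± 0.33), 1 of 13 precursor and newly formed genes. Both had an edgeR adjusted p = 0.9998 and were named after their values were seen. In the cortex comparison 5 listed genes had an unadjusted p under 0.05. These were 1 of 26 sheath proteins, 1 of 9 lipid genes, 1 of 9 transcription factors, 1 of 13 precursor genes and 1 of 15 mature genes. The share of all genes under that value is not given here. Of the genes followed throughout, the thalamus comparison gave 0.31 ± 0.17 for Sox10, 0.035 ± 0.17 for Myrf, -0.0055 ± 0.26 for Pdgfra and 0.018 ± 0.21 for Gpr17. The cortex comparison gave 0.014 ± 0.20, 0.16 ± 0.23, -0.52 ± 0.28 and 0.19 ± 0.45 for the same genes in turn, and the interaction 0.28 ± 0.25, -0.15 ± 0.29, 0.49 ± 0.41 and -0.18 ± 0.53. In the interaction 1 listed gene had an unadjusted p under 0.05, again Itpr2 (1.33 ± 0.49, unadjusted p = 0.0147, edgeR adjusted p = 1). Itpr2 is a calcium release channel, and which cells its RNA came from was not tested.

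**Figure D4:**
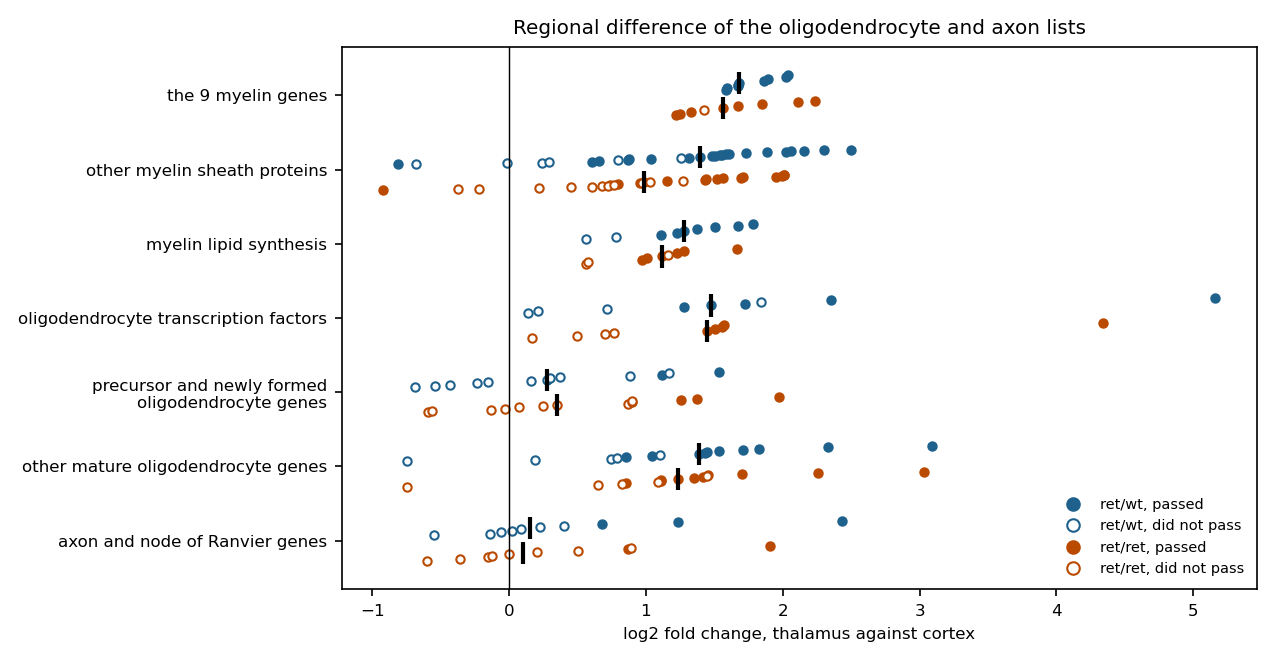
Log2 fold change of thalamus against cortex (horizontal axis) for each gene of the 9 members and of 6 further lists, blue for ret/wt and orange for ret/ret, filled where the adjusted p is under 0.05, with a black tick at the list's median. The members, sheath, lipid, transcription factor and mature lists have medians between 0.99 and 1.68, and the precursor and axon lists between 0.10 and 0.35.

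Across the 16 libraries (2 from each of 8 animals) the levels of the members went together. The Pearson correlation of log2 CPM between pairs of members was 0.80 to 0.98 (36 pairs, median 0.93) with the regional difference included. With each group's mean subtracted it was 0.26 to 0.91, with a median of 0.66. Cldn11 and Mag were the most alike pair (0.91), followed by Mog with Mal (0.87) and Opalin (0.86). Mobp was like Mbp (0.85) and had a median of 0.41 with the other members, and Ermn one of 0.49. These points share library depth and scaling, and the correlations are given as a description.

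**Figure D5:**
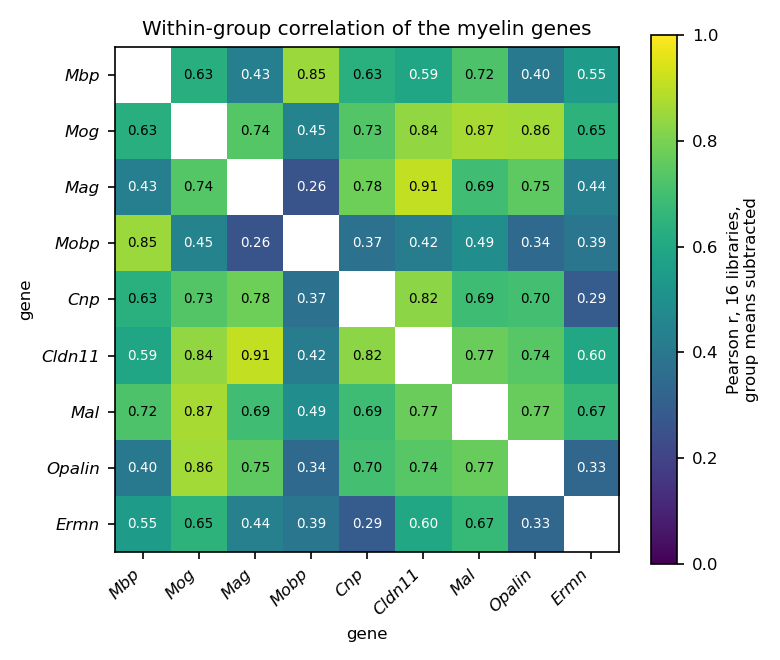
Pearson correlation between each pair of the 9 genes over 16 libraries after the mean of each of the 4 groups was subtracted, with the value in each cell and colour from 0 to 1. Mobp is close to Mbp (0.85) and farthest from Mag (0.26), and the block of Mog, Cldn11, Mal and Opalin lies between 0.74 and 0.87.

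The ratio of Mobp to Mag CPM was also computed in each library. It was 4.06, 2.30, 7.01 and 7.22 in ret/wt cortex, 4.38, 5.81, 5.33 and 4.64 in ret/wt thalamus, 8.97, 3.21, 5.52 and 10.4 in ret/ret cortex and 11.05, 4.69, 8.39 and 8.64 in ret/ret thalamus. The pair was chosen as the least correlated one after its values were seen, and the ratio has no test. The ret/ret libraries reached higher ratios than any ret/wt library in 5 of 8 cases.

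Among 12757 other genes with a mean log2 CPM of at least 1, the gene most like the mean of the members over all 16 libraries was Gjb1 (Pearson correlation 0.99), followed by Tmem88b (0.98), Fa2h (0.98), Hapln2 (0.97), Plekhb1 (0.97), Elovl1 (0.97), Pllp (0.97), Qdpr (0.97), Tmem63a (0.97) and Cdc42ep2 (0.97). Of these 10 genes, 8 were already in the lists above. With group means subtracted, Gjb1 (0.90) and Tmem88b (0.88) again came first, followed by Cdkn2aipnl (0.88), Evi2a (0.86), Trf (0.86), Adssl1 (0.86), Zfp105 (0.86), Gadd45a (0.86), Tnfaip6 (0.85) and Sbds (0.84), of which 4 were in the lists. Gjb1 stood at 2.66 to 9.13 CPM in ret/wt cortex and 25.2 to 33.3 CPM in ret/wt thalamus, and at 5.30 to 11.95 CPM and 29.1 to 49.4 CPM in ret/ret.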

How the data were processed

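RNA of cortex and thalamus from 8 mice was sequenced as polyA-selected, stranded libraries, per the labels' protocols. The authors deposited estimated counts per Ensembl gene. The submitters' processing notes name kallisto 0.44.0 and GRCm38.p6 without their role, and how transcripts were summed to genes is not given in the sources used here. Of 279913 nonzero values, 104 were whole to within 1e-06, and the counts were rounded before testing. Totals were 13415391 to 29135064 per library. Intervals give the uncertainty of the fitted difference, from 4 animals a group.

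Symbols came from GENCODE M21 (21581 of 21804 identifiers matched, 99.0%). Genes were kept by filterByExpr (minimum count 10, minimum total 15), scaled by TMM and tested with edgeR 4.0.16 (quasi-likelihood, R 4.3.3), with Benjamini-Hochberg adjustment over all genes tested and a threshold of 0.05. Pairwise fits held only the 8 libraries compared, and the interaction fit held all 16. Log2 CPM used a prior count of 1, and intervals are at 95%. The fits were also run on simulated counts drawn independently for each library, which cannot cover the pairing within an animal or libraries that stand apart.

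Alternatives were DESeq2 1.42.0, limma-voom (limma 3.58.1), DESeq2 size factors, library size alone, upper-quartile factors, no mitochondrial genes, no filter, a threshold of 0.01, a replicate block, the libraries without 2 animals with Y-linked reads, and each library left out in turn. The labels' animal letters pair cortex and thalamus within a genotype. Correlations of the paired libraries' deviations from their group means were -0.02 to 0.19 in ret/wt and -0.00 to 0.24 in ret/ret. Replicate numbers do not pair animals of different genotypes.

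Members and lists were chosen with earlier results of these data known. All 9 members are named in each comparison. Of each other list, at most the 4 called genes with the largest change and a mean log2 CPM of at least 1 could be named in a comparison, plus Sox10, Myrf, Pdgfra and Gpr17, and 1 listed gene was not analysed here. Some genes that this rule names are not reported here. Promoters are from the RefSeq table on GRCm38.p6.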

Additional observations from a re-analysis of the deposited data

Results flagged for a closer look

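Each of the 36 groups of 4 libraries (9 genes in 4 groups) was searched for a library far from the other 3, by Dixon's test of the gap against the group's range, and chance flags about 1 in 20 groups. Mobp in ret/wt thalamus replicate 3 stood at 1474 CPM, below the other libraries at 1656, 1660 and 1683 CPM, a gap of 0.869 of the range. Ermn in ret/wt cortex replicate 3 stood at 79.6 CPM, above 28.9, 31.9 and 35.9 CPM, a gap of 0.861 of the range. Both libraries come from the same animal, 1 of the 2 with Y-linked reads and cerebellar markers in the cortex piece.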

How the results depend on the processing

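Of the members, 9 of 9 in ret/wt and 8 of 9 in ret/ret passed without any one library, 8 to 9 passed under the other alternatives in each genotype, and 0 passed in the other 3 comparisons under any. Ermn in ret/ret passed under upper-quartile factors (adjusted p = 0.0496), DESeq2 and the block, and its edgeR, DESeq2 or limma adjusted p ranged from 0.00792 to 0.173.

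Genes called between regions numbered 784 in ret/wt and 361 in ret/ret at 0.01, and in ret/ret 2591 with DESeq2 and 2564 without the 2 animals with Y-linked reads. Between genotypes DESeq2 called 38 genes in thalamus and 39 in cortex, and 4 in the interaction. The cortex count was 0 at 0.01, 0 with the replicate block and 1 without those 2 animals. Leaving out each library gave 1178 to 1797 genes in ret/wt, lowest without cortex replicate 1, and 627 to 2007 in ret/ret, with 714, 691 and 688 without thalamus replicates 1, 3 and 4 and 627 and 759 without cortex replicates 3 and 4. It gave 0 to 0 in the thalamus comparison, 0 to 2 in cortex and 0 to 0 in the interaction. The replicate block of the genotype comparisons joins different animals that share only a number, so its values there describe no pairing. With the replicate block, which is the animal within a genotype, 1487 and 1177 genes were called between regions in ret/wt and ret/ret.

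Fitted log2 differences that changed sign had not passed a test. Between regions in ret/ret Gpr17 became 0.051 (library size alone), 0.087 (upper-quartile factors), 0.26 (limma-voom), 0.23 (replicate block). Leaving out 1 library there gave Gpr17 -0.30 to 0.54. Between genotypes in thalamus Gpr17 became -0.012 (library size alone), Pdgfra became 0.058 (limma-voom), 0.059 (replicate block), 0.0074 (without the 2 animals), Ermn became -0.048 (limma-voom), -0.052 (replicate block). Leaving out 1 library there gave Myrf -0.075 to 0.10, Pdgfra -0.22 to 0.10, Gpr17 -0.079 to 0.14, Mag -0.10 to 0.039, Opalin -0.0080 to 0.17, Ermn -0.25 to 0.24. Between genotypes in cortex Sox10 became -0.0011 (no mitochondrial genes), -0.056 (without the 2 animals), Gpr17 became -0.063 (limma-voom), -0.012 (replicate block), Mag became 0.040 (limma-voom), 0.029 (replicate block). Leaving out 1 library there gave Sox10 -0.085 to 0.15, Gpr17 -0.35 to 0.49, Mag -0.30 to 0.24, Opalin -0.18 to 0.22. In the interaction Mag became 0.0050 (DESeq2 size factors), 0.0057 (upper-quartile factors), 0.013 (no mitochondrial genes), 0.0055 (DESeq2), 0.15 (without the 2 animals), Gpr17 became 0.069 (limma-voom), 0.050 (replicate block), Mbp became -0.082 (without the 2 animals), Mobp became -0.055 (without the 2 animals). Leaving out 1 library there gave Gpr17 -0.47 to 0.35, Mbp -0.18 to 0.28, Mog -0.56 to 0.071, Mag -0.28 to 0.27, Mobp -0.093 to 0.50, Opalin -0.18 to 0.25. The cause was not tested. With 4 animals a group, the intervals of the genotype comparisons limit what size of difference could be seen.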
